A study of Mus musculus with 12 samples.

Results

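The enzymes that make and break down heme were examined in hippocampal RNA of adult mice, as 9 genes: Alas1, Alad, Urod, Cpox and Fech of the synthesis route, and Hmox1, Hmox2, Blvra and Blvrb of the breakdown route. Their transcripts were found by identifier in the GENCODE annotation of the mouse genome (GRCm38, the build also named mm10), which placed 52 of the 115270 deposited transcripts in these 9 of 35580 genes. The 12 mice were C57BL/6 males (C57BL/6J by the study's methods) at postnatal day 70, with 3 mice in each of 4 groups. Control mice came from dams given only water and stayed with the dam. Ethanol mice came from dams that could drink 10% ethanol beside water during gestation and, by the study's methods, until postnatal day 10, so that the dose each dam took was her own choice. Stress mice came from water-only dams and spent 3 h of each day alone between postnatal days 2 and 14, and ethanol + stress mice had both exposures. Half-litters were assigned to separation, but the labels do not say which mice were littermates, so that the spread between the 3 mice of a group may hold litter differences.

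By this annotation Alas1 lies on the minus strand of chromosome 9 (106233455 to 106248654), and Alad (62509169 to 62519918) and Urod (116989965 to 116994413) on that of chromosome 4. Cpox (58670292 to 58717636) and Hmox2 (4726361 to 4766742) lie on the plus strand of chromosome 16, Hmox1 on chromosome 8 (75093621 to 75100589, plus), Blvra on chromosome 2 (127070665 to 127097084, plus) and Blvrb on chromosome 7 (27447978 to 27466144, plus). TPM sums are over all transcripts of a gene, retained introns included.

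Heme is an iron-bearing ring that cytochromes, catalase, guanylate cyclase and hemoglobin need. Its synthesis starts in mitochondria with the joining of glycine and succinyl-CoA, passes through the cytosol as a series of porphyrinogens, and ends in mitochondria where iron is put into the ring. Heme oxygenases open the ring, releasing iron, carbon monoxide and biliverdin, and biliverdin reductases turn biliverdin into bilirubin. In brain the constitutive heme oxygenase of neurons predominates, and the inducible form rises in glia under oxidative stress or after bleeding.

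The values are TPM, transcript levels corrected for length, summed per gene. The libraries held an estimated 12050000 to 14900000 read pairs each. Markers of hippocampal neurons summed to between 2986 and 3466 TPM in every library and none of the 9 was at 0. In the libraries of ethanol replicate 2 and of ethanol + stress replicates 2 and 3, short transcripts stood higher relative to long ones than elsewhere, with slopes of -0.078, -0.054 and -0.043 in log2 per doubling of length against -0.013 to 0.050 in the other 9 libraries.

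None of the 9 enzymes passed the test as a gene in any comparison. All passed the filter on low values, and tests were run in limma on log2(TPM + 0.5), with a call at an unadjusted p under 0.01. Of the 9 gene sums, 0 were called in ethanol mice, where 0.678% of the 18434 genes tested were called, 0 in stress mice (background 0.51%), 0 in ethanol + stress mice (background 0.971%) and 0 for the interaction of the 2 treatments (background 0.461%). At an unadjusted p under 0.05 the counts were also 0 in all 4 comparisons. The median difference over the 9 enzymes on the log2 scale was -0.01 for ethanol, 0.00 for stress and 0.03 for both treatments together, beside 0.02, 0.00 and 0.02 over all genes tested. The smallest p of the 36 tests was that of Blvrb in ethanol + stress mice (unadjusted p of 0.0686, adjusted p = 0.791). The treated groups share the 3 control mice, so that their differences are not independent of each other.

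**Figure D1:**
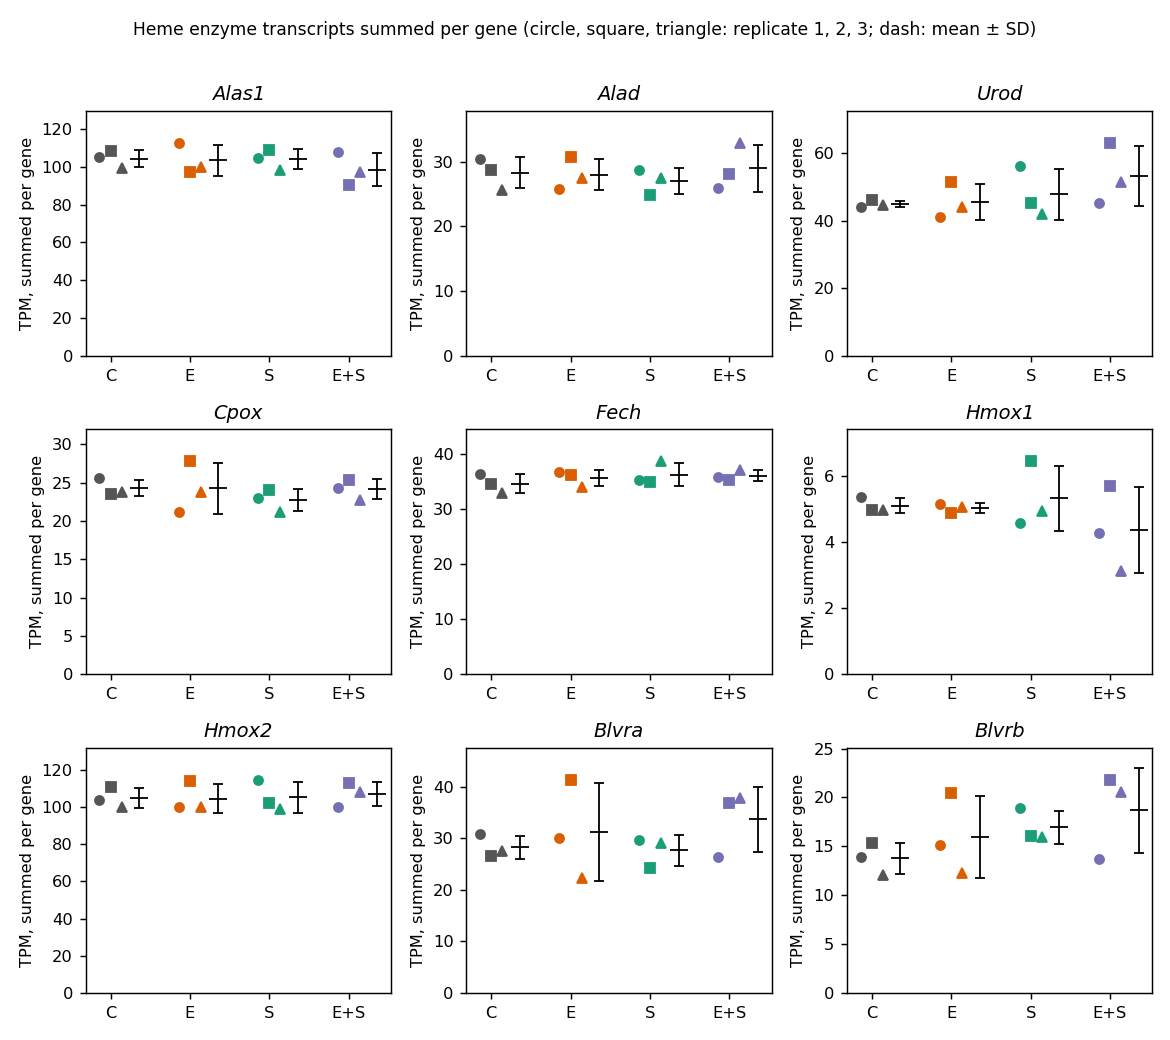
Summed TPM of each of the 9 enzymes (vertical axis, from 0) in the control (C), ethanol (E), stress (S) and ethanol + stress (E+S) groups, with 1 point per mouse and the mean ± SD beside the points. Alas1 and Hmox2 lie near 100 TPM and Hmox1 near 5 TPM in all groups, and Blvra spans 22.4 to 41.3 TPM within the ethanol group.

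The enzymes were transcribed at very different levels. In control mice the order ran from Hmox2 (105 ± 5.40 TPM, mean ± SD, n = 3) and Alas1 (104 ± 4.48) through Urod (45.04 ± 0.983), Fech (34.7 ± 1.80), Alad (28.3 ± 2.42), Blvra (28.3 ± 2.23), Cpox (24.3 ± 1.07) and Blvrb (13.8 ± 1.62) to Hmox1 (5.11 ± 0.234). Hmox2 and Alas1 overlapped in range, as did Alad and Blvra, and all other neighbours in this order were separated in the control mice. The constitutive oxygenase thus stood above the inducible one in every library, since the lowest Hmox2 value was 98.8 TPM and the highest Hmox1 value 6.45 TPM. Variation over the 12 libraries was smallest for Fech (coefficient of variation 4.30%) and largest for Blvrb (20.4%) and Blvra (18.9%), beside a median of 17.2% over all genes tested.

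Alas1, the housekeeping 5-aminolevulinate synthase that sets the pace of heme synthesis outside red cell precursors, had 13 deposited transcripts. Its sum was 105, 108 and 99.4 TPM in the 3 control mice, 113, 97.4 and 99.96 TPM in ethanol, 105, 109 and 98.3 TPM in stress, and 108, 90.4 and 97.1 TPM in ethanol + stress mice. All groups overlapped, and the 95% interval of the ethanol difference ran from -0.21 to 0.18 on the log2 scale. Most of this sum was assigned to transcripts that do not encode the whole enzyme. A transcript of 460 nt in the 5′ part of the gene (ENSMUST00000215222.1) held 54.4% of it over the 12 libraries, and a transcript without coding annotation (ENSMUST00000134053.7) held 33.3%. Of the 430 31-base words of ENSMUST00000215222.1, the length over which kallisto matches reads, only 5 occur in no other transcript, so that its level rests largely on the division of shared read pairs. The 3 transcripts with a full-length coding sequence together gave 11.9 ± 0.231 TPM in control, 8.48 ± 1.49 in ethanol, 9.004 ± 1.54 in stress and 9.87 ± 1.43 TPM in ethanol + stress mice (SD, n = 3 each).

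A pair of these full-length transcripts differs in its first exon, its ends and, inside the coding sequence, the start of exon 8 (GRCm38 chromosome 9, minus strand). ENSMUST00000074082.12 has 2129 nt from 106233927 to 106247856 with a first exon of 72 nt, and ENSMUST00000141118.8 has 3399 nt from 106233458 to 106248654 with a first exon of 870 nt. In ENSMUST00000141118.8 exon 8 spans 106238075 to 106238239, and in ENSMUST00000074082.12 it spans 106238075 to 106238236. On the minus strand this leaves out the first 3 bases of the exon and takes the coding sequence from 1926 to 1923 nt. The join of exons 7 and 8 is shown for both, read from the GENCODE transcript sequences, because the difference between ethanol and control mice was called for the shorter form and not for the longer one. The capitals mark the 3 bases that it lacks.
ENSMUST00000141118.8: attcaatggatgGAGcagtgtgcccac
ENSMUST00000074082.12: attcaatggatgcagtgtgcccac

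The shorter form, ENSMUST00000074082.12, was listed at 6.77, 8.11 and 6.04 TPM across the controls, against 4.75, 1.73 and 2.86 TPM in ethanol mice. Each ethanol value was below every control value, and the difference was -1.13 (SE 0.35) on the log2 scale (unadjusted p of 0.00815, adjusted p = 0.779). In stress mice it was at 3.21, 6.29 and 3.97 TPM (unadjusted p of 0.103) and in ethanol + stress mice at 5.503, 6.85 and 3.40 TPM (unadjusted p of 0.258), with ranges that overlap those of the controls. The interaction was 1.33 (SE 0.49, unadjusted p of 0.0210) and was not called. The longer form, ENSMUST00000141118.8, was at 5.05, 4.08 and 5.73 TPM across the controls, against 5.31, 5.37 and 5.44 TPM in ethanol mice, a difference of 0.12 (SE 0.20, unadjusted p of 0.555). The difference between the 2 forms in their ethanol response was not tested, and the remaining full-length transcript (ENSMUST00000112524.8) was at 0 in all control and ethanol libraries. Only 29 of the 2099 31-base words of the shorter form occur in no other transcript, so that its level rests on few read pairs that fit it alone. Of the longer form 784 words occur in no other transcript, all in its first exon, so that the levels of the 2 forms do not measure the use of the exon 8 splice site alone. The call of the shorter form was lost with a replicate block (unadjusted p of 0.0126), with a common total (unadjusted p of 0.0115), with only the groups compared (unadjusted p of 0.0125) and without the 3 libraries of the steepest length slope (-0.82, unadjusted p of 0.0311). It was also lost without any 1 of control replicates 1, 2 and 3 (unadjusted p of 0.0197, 0.0306 and 0.0134), ethanol replicates 2 and 3 (unadjusted p of 0.0377 and 0.0209), stress replicate 3 (unadjusted p of 0.0116) and ethanol + stress replicate 1 (unadjusted p of 0.0115).

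**Figure D2:**
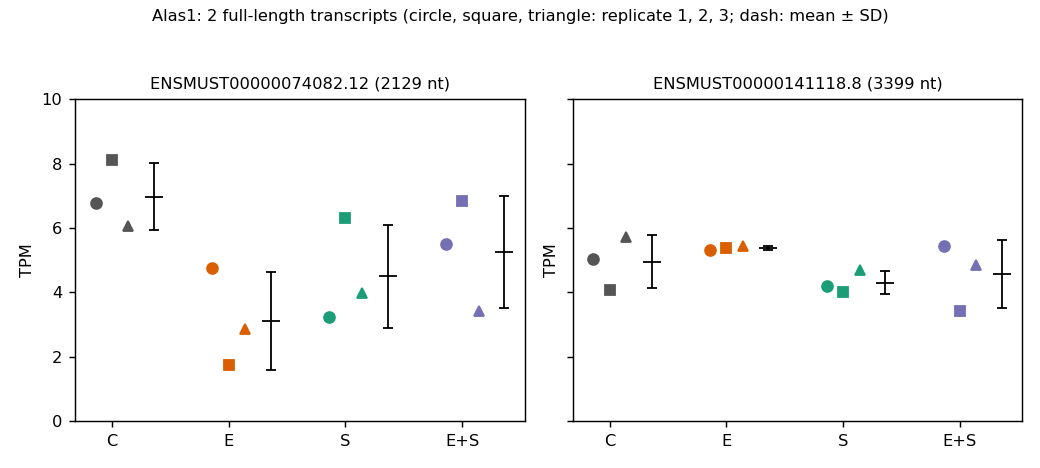
TPM (vertical axis, from 0) of the full-length Alas1 transcripts of 2129 nt (left, ENSMUST00000074082.12) and 3399 nt (right, ENSMUST00000141118.8), which differ in first exon, ends and 3 bases of exon 8, in the control (C), ethanol (E), stress (S) and ethanol + stress (E+S) groups, with 1 point per mouse and the mean ± SD beside them. The 3 ethanol points on the left lie between 1.73 and 4.75 TPM, below the control points at 6.04 to 8.11 TPM, and on the right each treated group overlaps the controls.

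Among the other transcripts of the 9 genes, 1 further call was made, for Blvrb and again in ethanol mice. Of the 52 transcripts, 2 were at 0 in every library and 33 passed the filter on low values. Of these 33, 2 were called in ethanol mice, where 1.26% of the 59852 transcripts tested were called. In stress mice 0 were called (background 0.914%), in ethanol + stress mice 0 (background 1.21%) and for the interaction 0 (background 0.854%), with 1, 1 and 3 at an unadjusted p under 0.05. The lowest adjusted p was 0.740.

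Alad, which condenses aminolevulinate into porphobilinogen, came almost wholly from ENSMUST00000030090.3 (97.2% of the sum). It was at 30.5, 28.7 and 25.7 TPM across the controls, against 25.9, 30.7 and 27.5 TPM in ethanol mice, and at 28.7, 24.9 and 27.5 TPM in stress and 25.9, 28.1 and 32.9 TPM in ethanol + stress mice. These ranges overlapped, and the 95% interval of the ethanol + stress difference was -0.22 to 0.28 on the log2 scale.

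Urod, the decarboxylase that makes coproporphyrinogen, was at 44.2, 46.1 and 44.7 TPM across the controls, against 41.0, 51.5 and 44.2 TPM in ethanol mice. Stress mice had 56.4, 45.4 and 42.0 TPM and ethanol + stress mice 45.4, 63.1 and 51.5 TPM. The ethanol + stress difference was 0.23 (SE 0.14, unadjusted p of 0.126) and fell to 0.01 without the 3 libraries of the steepest length slope, which leaves 1 ethanol + stress mouse. Its main transcript, ENSMUST00000030446.14, held 77.4% of the sum. A retained-intron transcript of 511 nt (ENSMUST00000127635.7, 10.6%) ranged from 0 to 15.6 TPM over the libraries, and none of its 31-base words is found in it alone, so that its level is set by the division of shared read pairs.

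Cpox, the oxidase of the next step, was at 24.3 ± 1.07 TPM in control, 24.3 ± 3.30 in ethanol, 22.7 ± 1.47 in stress and 24.2 ± 1.29 TPM in ethanol + stress mice (SD, n = 3). Single values ran from 23.6 to 25.6 TPM in control, 21.2 to 27.8 in ethanol, 21.1 to 24.0 in stress and 22.8 to 25.4 TPM in ethanol + stress mice. The groups overlapped, and its main transcript ENSMUST00000060077.6 held 78.3% of the sum. A retained-intron transcript, ENSMUST00000231492.1, held a further 12.3%, on at most 20.7 estimated read pairs in a library.

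Fech, ferrochelatase, which inserts iron to complete heme, was deposited as 1 transcript and was the steadiest of the 9. The control mice had 36.5, 34.7 and 32.9 TPM and the ethanol mice 36.8, 36.2 and 34.0 TPM. Stress mice had 35.4, 34.9 and 38.7 TPM and ethanol + stress mice 35.9, 35.3 and 37.2 TPM. The 95% intervals of the 3 differences lay between -0.13 and 0.24 on the log2 scale.

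Other synthesis enzymes were read beside these. Uros (27.7 ± 3.45 TPM in control mice, SD, n = 3), which closes the ring, and Ppox (8.72 ± 1.38), which oxidises protoporphyrinogen, were not called in any comparison, with differences between -0.14 and 0.17 on the log2 scale from control. Alas2, the synthase of red cell precursors, was the exception. It was at 7.16, 5.90 and 8.15 TPM in control mice and at 12.5, 21.4 and 13.9 TPM in ethanol, 10.9, 13.4 and 11.0 TPM in stress, and 10.00, 17.6 and 12.9 TPM in ethanol + stress mice. Every treated mouse was above every control mouse. Alas2 rose by 1.09 (SE 0.23) on the log2 scale in ethanol (unadjusted p of 0.000483, adjusted p = 0.813) and by 0.86 (SE 0.23) in ethanol + stress mice (unadjusted p of 0.00273, adjusted p = 0.791), and its stress difference of 0.70 was not called (unadjusted p of 0.0102). The ethanol + stress call was lost without control replicate 2 (unadjusted p of 0.0141) or ethanol + stress replicate 2 (unadjusted p of 0.0148). Without the 3 libraries of the steepest length slope, which leaves 1 ethanol + stress mouse, the difference was 0.48.

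Alas2 is also 1 of 7 red blood cell markers, and the list moved with it. Their summed level, mostly alpha and beta globins, was 1603 to 2022 TPM in control, 3146 to 6816 in ethanol, 2594 to 3393 in stress and 2455 to 6481 TPM in ethanol + stress mice. Beside Alas2, the globin genes Hba-a1, Hba-a2, Hbb-bs and Hbb-bt were called higher in ethanol mice and in ethanol + stress mice, and of the fits that left out 1 of the 12 mice up to 6 lost the call of a globin (Hbb-bs, ethanol + stress). Leaving out the 3 libraries of the steepest length slope keeps 1 ethanol + stress mouse. The ethanol + stress differences were then 0.42 (Hbb-bs), 0.45 (Hba-a2) and 0.55 (Hba-a1) on the log2 scale. The median over the 7 markers with all mice was 1.08, and the value of Hbb-bt without those libraries is not given here. Slc4a1, the anion exchanger of the red cell membrane, was at 0 in 1 control library and below 1 TPM throughout. In bulk tissue, more cells of a type and more RNA per cell cannot be told apart, and the part of red blood cells in the Alas2 difference was not tested.

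Hmox1, the inducible heme oxygenase, was the lowest of the 9, on 33.8 to 69.6 estimated read pairs per library. It was at 5.38, 4.96 and 4.98 TPM across the controls, against 5.16, 4.88 and 5.07 TPM in ethanol mice. Stress mice had 4.59, 6.45 and 4.94 TPM and ethanol + stress mice 4.28, 5.72 and 3.12 TPM. Control and ethanol mice were close together, and the spread was wider in stress and ethanol + stress mice, whose lowest and highest values lie on either side of the controls. The ethanol + stress difference was -0.24 (SE 0.19, 95% interval -0.66 to 0.18, unadjusted p of 0.241), and it was -0.43 without ethanol + stress replicate 2 (unadjusted p of 0.0379) and -0.04 without replicate 3 of that group (unadjusted p of 0.824). Microglial markers, from cells that express this enzyme, summed to 434 to 474 TPM in control and 372 to 545 TPM in ethanol mice. In stress mice they summed to 426 to 483 TPM and in ethanol + stress mice to 441 to 612 TPM. The highest sum was in ethanol + stress replicate 3, where Hmox1 was lowest, and the part of microglia in the Hmox1 level was not tested.

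Hmox2, the constitutive oxygenase, was at 104, 111 and 100.2 TPM across the controls, against 99.7, 114 and 100.1 TPM in ethanol mice. In stress mice it was at 115, 102 and 98.8 TPM and in ethanol + stress mice at 100.2, 113 and 108 TPM. The 95% interval of each difference from control lay between -0.20 and 0.22 on the log2 scale. This sum was shared by 3 transcripts with the same 945 nt of coding sequence, the same 4 inner exons and different first exons on chromosome 16, which start at 4726363, 4741581 and 4756903. ENSMUST00000004172.14, from the outermost start, held 57.6%, ENSMUST00000120232.7 21.5% and ENSMUST00000118885.7, from the innermost start, 10.5%.

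The minor Hmox2 forms varied far more than the sum. ENSMUST00000120232.7 was at 25.8, 12.1 and 21.9 TPM across the controls, against 9.80, 38.4 and 27.7 TPM in ethanol mice. ENSMUST00000118885.7 was at 2.55, 22.01 and 14.6 TPM across the same controls, against 14.6, 4.52 and 8.40 TPM in the same ethanol mice, high where the other form was low. Neither was called in any comparison, and their ranges overlapped between all groups. ENSMUST00000118885.7 has 71 of 1362 31-base words to itself, and read pairs from the shared exons must be divided among the 3 forms.

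**Figure D3:**
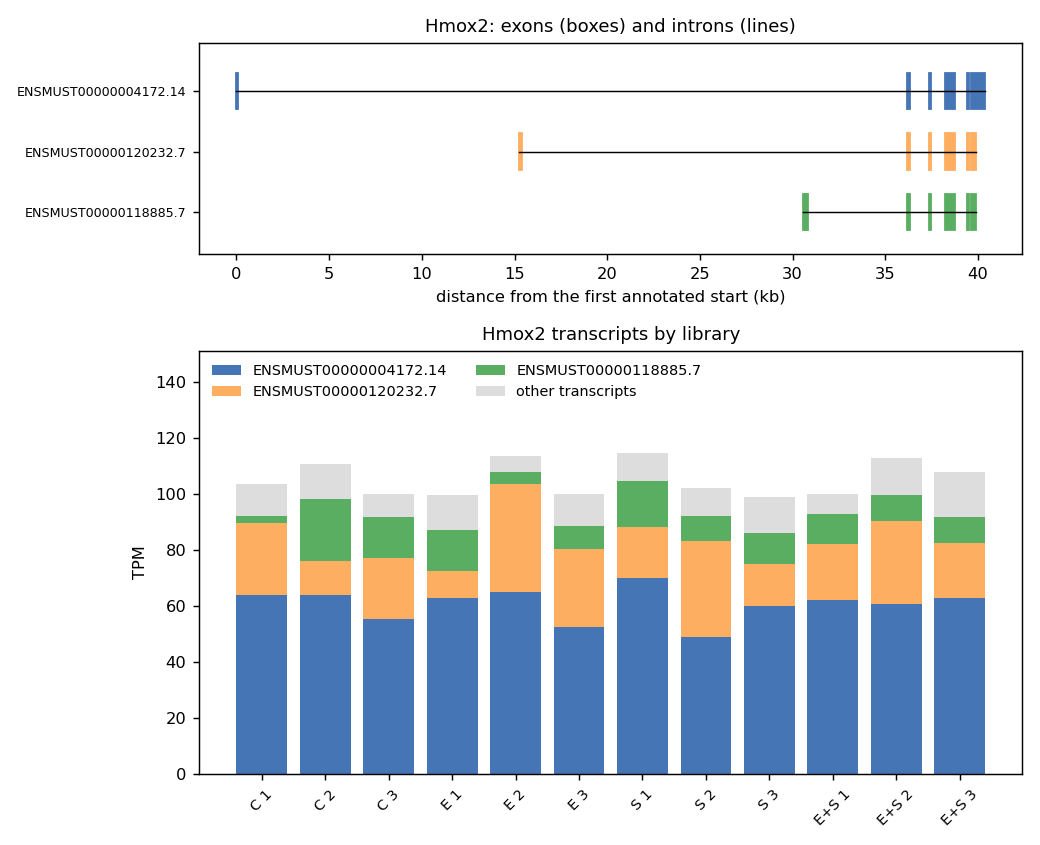
Above, exons (boxes) of the 3 main Hmox2 transcripts against the distance in kb from the outermost start, and below, their TPM and that of the other transcripts stacked for each library (control C, ethanol E, stress S, ethanol + stress E+S, replicates 1 to 3). The total bars stay between 98.8 and 115 TPM while the 2 minor forms vary within them.

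Blvra, the biliverdin reductase that makes the usual form of bilirubin, was at 30.8, 26.5 and 27.5 TPM across the controls, against 29.95, 41.3 and 22.4 TPM in ethanol mice. Stress mice had 29.6, 24.2 and 29.1 TPM and ethanol + stress mice 26.4, 36.9 and 37.7 TPM. The high values were those of ethanol replicate 2 and of ethanol + stress replicates 2 and 3, the libraries in which short transcripts stood high, and the part of that slope in the values was not tested. The ethanol + stress difference was 0.23 (SE 0.20, unadjusted p of 0.265) and was -0.09 without these 3 libraries, which leaves 1 ethanol + stress mouse. ENSMUST00000002064.14 held 86.1% of the sum and ENSMUST00000142737.2, with 152 coding codons instead of 295, held 11.4% at 0.852 to 6.93 TPM.

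Blvrb, the second biliverdin reductase, which also reduces flavins and is abundant in red cells, was at 13.9, 15.3 and 12.1 TPM across the controls, against 15.1, 20.5 and 12.2 TPM in ethanol mice. Stress mice had 18.9, 16.0 and 16.0 TPM, all above the controls, and ethanol + stress mice 13.7, 21.8 and 20.6 TPM. The differences were 0.18 (SE 0.20, unadjusted p of 0.394) in ethanol, 0.29 (SE 0.20, unadjusted p of 0.174) in stress and 0.41 (SE 0.20, 95% interval -0.04 to 0.85, unadjusted p of 0.0686) in ethanol + stress mice, and none was called. Without ethanol + stress replicate 1 the last became 0.61 (unadjusted p of 0.00793), a fit in which 763 of the 18434 genes were called. Without the 3 libraries of the steepest length slope the ethanol + stress difference was 0.00, but that fit keeps only replicate 1 of the ethanol + stress mice. The red blood cell markers were likewise lowest in replicate 1 of the ethanol + stress mice (2455 TPM, against 6481 and 3978 TPM), and the part of either in the Blvrb level was not tested. The study itself names Blvrb from these samples, so that its choice is not independent of them.

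**Figure D4:**
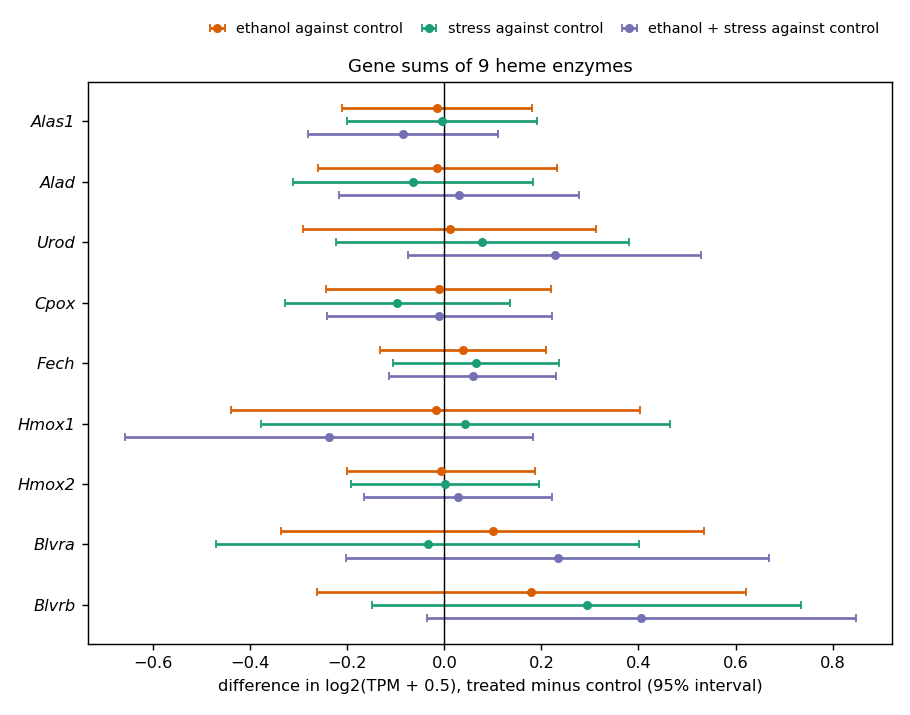
Differences of the gene sums from control on the log2(TPM + 0.5) scale (horizontal axis, 95% intervals from limma) for the 9 enzymes in ethanol, stress and ethanol + stress mice. All intervals include 0, and the highest estimate is that of Blvrb in ethanol + stress mice at 0.41.

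Of the 6 deposited Blvrb transcripts, 2 with different starts held 82.0% and 15.1% of the sum (GRCm38 chromosome 7, plus strand). ENSMUST00000037399.15 begins at 27447978 and encodes the enzyme in 618 nt, or 206 codons. ENSMUST00000108357.7 begins 4440 bases further on, at 27452418, shares exons 2 to 4 and the start of exon 5, and has 360 nt of coding sequence. RefSeq lists a start at each of these bases. The 180 bases from 150 before to 30 from each start are printed because the 2 transcripts that make up most of the Blvrb sum begin there. They come from the RefSeq promoter table for GRCm38.p6, at chr7:27447828-27448007 and chr7:27452268-27452447, and the capitals mark the GC box GGGCGG or its reverse complement CCGCCC.
ENSMUST00000037399.15 start: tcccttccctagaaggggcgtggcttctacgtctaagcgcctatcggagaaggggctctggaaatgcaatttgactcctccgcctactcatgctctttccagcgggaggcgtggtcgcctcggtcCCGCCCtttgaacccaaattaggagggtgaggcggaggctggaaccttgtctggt
ENSMUST00000108357.7 start: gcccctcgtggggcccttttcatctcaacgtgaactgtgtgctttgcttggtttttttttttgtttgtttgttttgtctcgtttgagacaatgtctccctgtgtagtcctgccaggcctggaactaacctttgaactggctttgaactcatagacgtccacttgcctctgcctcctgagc

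The upstream window held 1 GC box and the downstream window none, and 30.98% of the 32851 windows of this length in the table hold one on either strand. Neither window held CCAAT (27.0% of windows) or TATAA (15.6%) on either strand. The upstream window was 58.9% G or C and the downstream one 48.3%. A match to these letters is no more than a description of the sequence. The table gave 12 windows for 7 of the 9 enzymes.

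The transcript from the downstream start, ENSMUST00000108357.7, was listed at 0.147, 0 and 0 TPM across the controls, against 2.23, 4.83 and 5.64 TPM in ethanol mice. Every ethanol mouse was above every control mouse. In stress mice it was at 0.502, 5.63 and 1.319 TPM and in ethanol + stress mice at 0, 5.49 and 3.82 TPM. In estimated read pairs these were 0.702, 0 and 0 in control, 11.4, 21.3 and 30.5 in ethanol, 2.67, 24.8 and 7.13 in stress, and 0, 28.4 and 17.5 in ethanol + stress mice. All 3 control mice, stress replicate 1 and ethanol + stress replicate 1 were thus under the floor of 3 read pairs and cannot be ordered among themselves, and an exact 0 can also be a failed estimate. The ethanol mean of 4.23 TPM was 6.49 times the level that 3 read pairs would give in a control library (0.652 TPM on average), a measure that covers counting error only.

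The test called this transcript higher in ethanol mice, by 3.04 (SE 0.89) on the log2 scale (unadjusted p of 0.00595, adjusted p = 0.740), a size that depends on the pseudocount because the control values are near 0. In stress mice (2.04, unadjusted p of 0.0433) and in ethanol + stress mice (2.11, unadjusted p of 0.0377) the difference was not called. The interaction was -2.97 (SE 1.26, unadjusted p of 0.0385), also not called. The ethanol call was lost without any 1 of control replicates 1, 2 and 3 (unadjusted p of 0.0126, 0.0172 and 0.0172) or ethanol replicates 2 and 3 (unadjusted p of 0.0194 and 0.0220). Without ethanol + stress replicate 1, where this transcript was at 0 TPM, the stress (unadjusted p of 0.00716) and ethanol + stress (unadjusted p of 0.000780) differences were called too. In that fit 0.956% of all transcripts tested were called in stress and 2.23% in ethanol + stress mice, against 0.914% and 1.21% with all mice.

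The main Blvrb transcript, ENSMUST00000037399.15, was not called, with an ethanol difference of -0.22 (SE 0.30, adjusted p = 0.978). It was at 13.7, 12.7 and 12.002 TPM across the controls, against 12.7, 15.4 and 6.51 TPM in ethanol mice, and at 18.4, 9.36 and 14.1 TPM in stress and 12.8, 16.3 and 16.8 TPM in ethanol + stress mice. Its lowest values, in ethanol replicate 3 and stress replicate 2, were in the libraries where the downstream form was highest. The downstream form was next highest in ethanol + stress replicate 2 (5.49 TPM) and ethanol replicate 2 (4.83 TPM). There the main form was at 16.3 and 15.4 TPM, above all controls. Its share of the Blvrb sum averaged 93.7% ± 9.35 among controls (SD, n = 3) and 70.9% ± 15.9 after ethanol (SD, n = 3), a difference of -22.8 percentage points (two-sided exact permutation test, p = 0.2), and of -13.9 points without ethanol replicate 3. Control replicate 2 had 82.9%, most of the rest being a further transcript, ENSMUST00000133750.7, at 2.62 TPM. In stress and ethanol + stress mice the share was 81.3% ± 20.3 and 83.2% ± 9.34. Only 26 of the 752 31-base words of the downstream form occur in no other transcript, all in its first exon, so that the other read pairs were assigned to it by estimate.

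**Figure D5:**
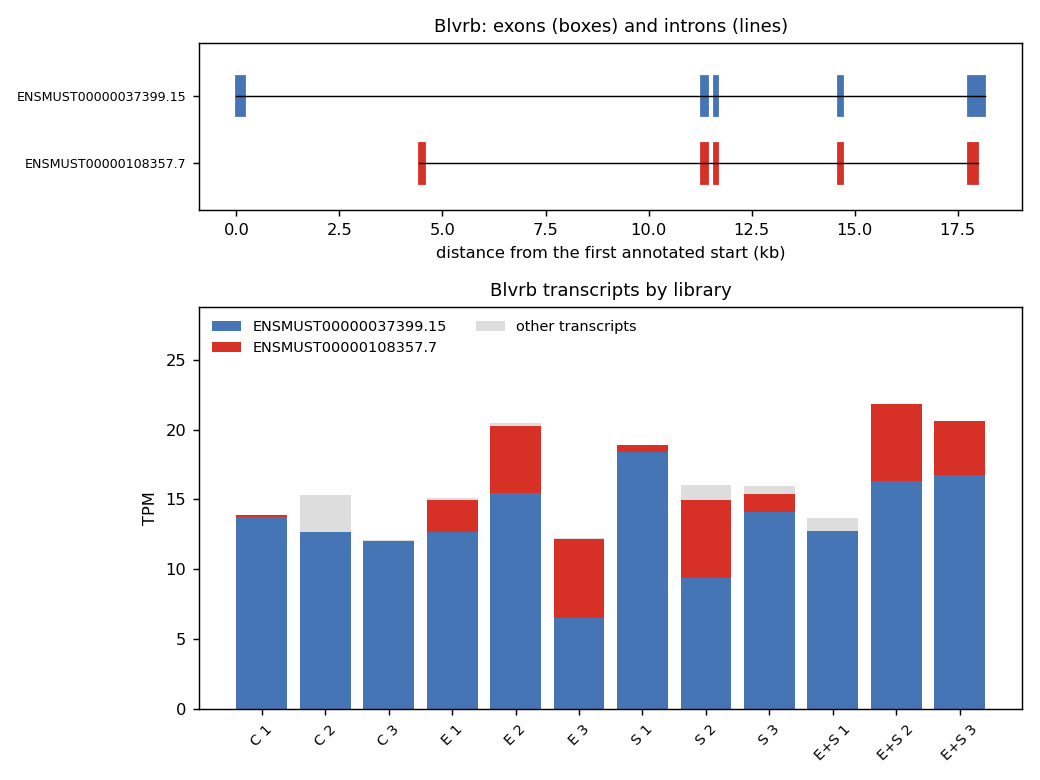
Above, exons (boxes) of the 2 main Blvrb transcripts against the distance in kb from the upstream start, and below, their TPM and that of the other transcripts stacked for each library (control C, ethanol E, stress S, ethanol + stress E+S, replicates 1 to 3). The downstream form reaches at most 0.147 TPM in the control libraries and 2.23 to 5.64 TPM in the ethanol libraries.

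The share of the main transcript was compared for the 7 enzymes with at least 2 tested transcripts. Over these 21 comparisons with control the differences other than those of Blvrb ran from -7.43 percentage points (Cpox, ethanol) to 5.80 (Urod, ethanol), and no adjusted p was below 1. With 3 mice against 3 the exact permutation test cannot give a p below 0.1.

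The genes around these enzymes are given by list. Those of other synthesis enzymes, 15 heme and porphyrin carriers, 11 heme-sensing and control factors, 12 iron handling genes, 4 clearance genes for heme and hemoglobin, 7 heme-using proteins and 6 target genes of Nfe2l2 hold 59 genes in all. Of these, 1 was called in ethanol (Alas2; 0.678% of all genes tested), 1 in stress (Slc11a2; 0.51%), 1 in ethanol + stress (Alas2; 0.971%) and 0 for the interaction (0.461%) in limma, with 3, 2, 2 and 3 at an unadjusted p under 0.05. The median difference of the 59 was 0.02, 0.00 and 0.04 for the 3 treatments on the log2 scale. Slc11a2, an importer of ferrous iron, was at 23.4, 27.9 and 20.1 TPM across the controls, against 15.6, 16.6 and 17.6 TPM in stress mice. It fell by 0.49 (SE 0.16) on the log2 scale (unadjusted p of 0.00886, adjusted p = 0.9998), with no stress mouse in the range of the controls. This call was lost without any 1 of control replicates 1 and 2, stress replicates 1, 2 and 3, ethanol replicates 1 and 3 and ethanol + stress replicate 3 (unadjusted p of 0.0104 to 0.0471). It was also lost with a common total (0.0421), with that and the 20 highest features removed (0.0210), with a replicate block (0.0135), with eBayes without trend (0.0124) and with no filter (0.0103).

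The genes most like Blvrb over the 12 libraries, after each gene was centred and divided by its SD, were Dpy30, Eef1akmt1 and Tmem68, with root mean square differences of 0.296, 0.312 and 0.316 SD among 18434 genes. Dpy30, a subunit of histone methyltransferase complexes, was highest in ethanol replicate 2 (79.4 TPM) and ethanol + stress replicates 2 and 3 (81.3 and 77.6 TPM), against 48.8 to 55.0 TPM in control mice. Those are the libraries with the steepest length slope. Blvrb was highest in them as well, so that the choice of Dpy30 by its likeness to Blvrb fixed this pattern in advance. For Hmox1 the closest were Gm48909, Ikzf1 and Vmn1r216, at 0.365, 0.501 and 0.526 SD. Ikzf1, a transcription factor of blood and immune cells, was at 1.31, 3.11 and 0.946 TPM in the ethanol + stress mice, lowest and highest in the same mice as Hmox1. Its choice by likeness to Hmox1 likewise fixed this in advance.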

How the data were processed

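Hippocampal RNA-Seq values of 12 mice were used. The authors assigned paired-end reads of stranded, rRNA-depleted libraries to Ensembl mouse transcripts with kallisto and used sleuth, and the deposited values are a signal, TPM per transcript scaled between libraries, with sums of 889222 to 1173650. Per the submitters' processing notes base calling was by CASAVA and the build mm10. Program versions are not given in the sources used here. Transcripts were joined to genes by identifier (113580 of 115270 matched GENCODE, 112441 with the same version) and summed. A step worth 1 read pair was found per library from low values of single-transcript genes, of which 79.7% to 82.7% came out within 0.1 of a whole number. As this was not nearly all, no count test was run, and read pairs served for floors only, which cover counting error.

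Features that reached 0.1 TPM in 6 or more libraries were fitted as log2(TPM + 0.5), which understates the change of low features, with limma 3.58.1 in R 4.3.3 (lmFit, eBayes with trend, 4 groups, no replicate block, two-sided), and called at an unadjusted p under 0.01, the threshold of the paper. Unadjusted p values are those of limma's moderated statistic, not of an exact test, and adjusted ones follow Benjamini and Hochberg over all features tested. Shares were compared by exact permutation tests. Words of 31 bases, the length kallisto matches, were counted over all GENCODE transcripts. Python 3.11.15 served for tables (pandas 2.3.3, numpy 2.4.6), exact tests (scipy 1.17.1) and plots (matplotlib 3.10.9).

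Named were all 9 enzymes, their transcripts that were largest, held at least 10% of the sum or were called, the other synthesis enzymes, called genes of the other lists (at most 3 per list), and the 3 genes most like Blvrb and Hmox1. ENSMUST00000141118.8 and ENSMUST00000133750.7 are named beside this rule because of their values. Some genes that the rule names are not reported here. The enzymes and lists were chosen with earlier results of these data known. Alternatives were other pseudocounts, filters and scalings, removal of the 20 highest features or of the length trend, eBayes without trend, only the groups compared, a replicate block and leaving out each mouse. Leaving out the 3 libraries of the steepest length slope and a minimum of 5 estimated read pairs were added after seeing the data. Marker lists covered red blood cells, microglia, endothelium, oligodendrocytes, astrocytes, choroid plexus, thalamus and hippocampal neurons.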

Additional observations from a re-analysis of the deposited data

Results flagged for a closer look

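Of the genes and transcripts described, 1 had a called interaction of ethanol and stress. Tmem119, a microglial marker and no heme enzyme, was at 17.7 ± 1.97 TPM in control, 15.7 ± 1.95 in ethanol, 16.8 ± 0.506 in stress and 21.9 ± 1.56 TPM in ethanol + stress mice (SD, n = 3). The interaction was 0.54 (SE 0.16) on the log2 scale (limma, unadjusted p of 0.00694, adjusted p = 0.99998), and its p rose to between 0.0108 and 0.0209 without any 1 of 9 mice. Without the 3 libraries of the steepest length slope, which leaves 1 ethanol + stress mouse, the interaction was 0.43. The call was also lost with a replicate block (0.0121) and with a common total (0.0145). Of the 8 microglial markers 1 was thus called for the interaction, against 0.461% of the 18434 genes tested.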

How the results depend on the processing

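The count of 0 called gene sums held in ethanol, stress and the interaction under every alternative run, and in ethanol + stress mice it ranged from 0 to 1 when mice were left out (1, Blvrb, without ethanol + stress replicate 1). Of 891 refitted differences of uncalled gene sums, 70 changed sign, 11 of them without the 3 libraries of the steepest length slope, 8 without control replicate 1 and 7 with a common total, and 878 moved by less than the SD between replicates. The 2 transcripts called in ethanol mice became 1 (Blvrb) with a common total, with only the groups compared, with a replicate block and without the 3 steepest libraries, and 0 to 3 when mice were left out. With mice left out, called transcripts ranged from 0 to 1 in stress, from 0 to 1 in ethanol + stress mice and from 0 to 2 for the interaction. Without the 3 steepest libraries only ethanol + stress replicate 1 remains of its group, so that no transcript count is given there for ethanol + stress or the interaction. The causes were not tested. The Blvrb transcript kept its direction in all 26 alternatives (2.26 to 4.90 on the log2 scale), as did the Alas1 transcript (-1.44 to -0.82) and Alas2 in ethanol mice in 25 (0.86 to 1.24). The Blvrb transcript passed the alternative minima of 1 TPM and of 5 estimated read pairs through treated libraries only.

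Samples of the same replicate number did not deviate together (correlations -0.173 to 0.164 over 18 pairs), and the labels tie them by number only, so that shared litters cannot be told from these data. With the replicate block 135 genes in place of 125 were called in ethanol and 166 in place of 179 in ethanol + stress mice, and the Alas1 transcript (unadjusted p of 0.0126), Slc11a2 (unadjusted p of 0.0135) and the Tmem119 interaction (unadjusted p of 0.0121) were no longer called. The share of called genes that were higher fell from 76% to 52.8% in ethanol and from 71.5% to 51.1% in ethanol + stress mice with the length trend removed, and to 60% and 45.8% with a common total. Leaving out ethanol + stress replicate 1 took the ethanol + stress count from 179 to 763. Depth limits the low transcripts of Blvrb, Urod, Cpox and Blvra, some of which rest on under 3 estimated read pairs in a library.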

Other observations

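Of the other marker lists, endothelium, oligodendrocytes, astrocytes, choroid plexus, thalamus and hippocampal neurons, none of 37 genes was called by limma in any of the 4 comparisons, and 2 of 148 tests had an unadjusted p under 0.05. Over all genes 0.678% were called in ethanol, 0.51% in stress, 0.971% in ethanol + stress mice and 0.461% for the interaction, so that a count of 0 among 37 genes is near the background. Choroid plexus markers nonetheless ranged from 42.0 to 7242 TPM in summed level over single mice, with 622 to 1845 TPM in control, 42.0 to 3535 in ethanol, 1659 to 5276 in stress and 208 to 7242 TPM in ethanol + stress mice. Among members outside the naming rule, the retained-intron transcript ENSMUST00000142861.1 of Blvra is named here because of its values. It was at 0.144, 0.2999 and 0.141 TPM in control and at 0.741, 1.21 and 0.369 TPM in ethanol mice, with no overlap. Its lowest value came to 1.43 estimated read pairs, under the floor of 3. The difference of 0.83 on the log2 scale was not called (limma, unadjusted p of 0.0135). With a minimum of 5 estimated read pairs in at least 6 libraries this Blvra transcript was called in ethanol mice beside the Blvrb and Alas1 transcripts. The Blvra and Blvrb transcripts passed that minimum through treated libraries only, so that their calls under it add no support. With eBayes without trend the Blvra transcript was called as well.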
